A study of Anopheles gambiae with 18 samples.

Results

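The transcripts described here encode membrane transporters, ion channels and ion exchangers of the Anopheles gambiae midgut. They were chosen by words in the protein homology names of the study's list of midgut transcripts, such as transporter, exchanger, cotransporter and channel, without the vacuolar proton pumps. These words found 49 transcripts on the parts of that list made from the male versus female and the gut compartment assays. A sodium/hydrogen exchanger (EN004030) was added by name from the cardia versus posterior part. All 50 were on the array, among 14197 transcripts in all and 3104 listed midgut transcripts. EN numbers are shortened Ensembl transcript identifiers, and the names assign a protein by homology, so that a function given below is that of the family.

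The assays used 18 oligonucleotide arrays in 6 comparisons, each with 3 arrays that the methods call biological replicates. Midguts came from 4-day-old Keele strain mosquitoes kept on sucrose, and the females had not taken blood. Male midgut was compared with female midgut, the cardia, the anterior midgut and the anterior-posterior and posterior-posterior parts of the female midgut were each compared with whole female midgut, and the female cardia was compared with the female posterior midgut. The first-named sample always carried Cy5 and the other Cy3, so a dye effect of a probe and a difference between samples cannot be told apart. A value below is the log2 ratio of Cy5 to Cy3, centred for each array on the median of 1937 transcripts that the study lists for the male versus female assay. It is positive where the first-named sample had more of the transcript, and errors are standard deviations (SD, n = 3 arrays).

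The midgut epithelium takes up sugars, amino acids, salts and water, and it is the organ that receives both nectar sugar and blood. In mosquitoes, proton pumps of the V-ATPase type energize the apical membrane of many gut cells, and exchangers and cotransporters use the resulting gradients to move sodium, potassium, chloride and nutrients. Aquaporins pass water, channels let single ions flow down their gradients, and transporters of the solute carrier and ATP binding cassette (ABC) families carry larger solutes. The cardia is the valve-like front end of the midgut, the anterior midgut lies behind it, and the wider posterior midgut is where a blood meal is held and digested.

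Calls of higher or lower needed a mean of 1 or more on the log2 scale (2-fold) in either direction and an adjusted p under 0.05, by limma with Benjamini-Hochberg adjustment over the 3104 listed transcripts. Arrays of 1 comparison correlated with each other over the listed transcripts at r from 0.541 to 0.694 in male versus female, and at r from -0.05 to 0.06 in cardia versus whole midgut. On the second cardia versus whole array, 29 of the 50 transporter transcripts had a ratio of small whole numbers, as ratios of a few units of signal do. In the same comparison, 10 of the members' values were missing. Values of that comparison are therefore given per array wherever a single member is described by them. In a fit without these arrays, all calls with a test in the other comparisons were kept, with adjusted p from 0.00369 to 0.0205. That fit called 5 members each in the anterior midgut and the anterior-posterior part, but its calls among all tested transcripts rose as well. Of 3104 tested, it called 73 higher and 363 lower in the anterior midgut, against 36 and 120 with all arrays. In the anterior-posterior part it called 138 higher and 497 lower, against 121 and 318. Of the marker lists, 31 digestive epithelium transcripts (trypsins, peritrophins and carboxypeptidases) had values on all 3 male versus female arrays. Of these, 9 were above 0 on all 3 and 15 below, where 18.6% and 46.3% of all tested transcripts were. The 7 visceral muscle markers had mean ratios from -1.17 to 1.06 over the 6 comparisons.

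Calls among the transporters are given beside the shares of all tested transcripts, and their number depended on the centre of the arrays, as described below. With 3 arrays in each comparison, a transcript without a call is not shown to be equal in the compared midguts. The 7 called members belonged to 6 classes, with 2 among the nucleoside and nucleotide sugar carriers. Between male and female midgut, 1 of 50 was called higher in the male, where 0.999% of all tested transcripts were, and 2 were called lower, where 3.90% were. In the anterior midgut, 1 was called higher than in whole midgut (1.16% of all tested) and 1 lower (3.87% of all tested). In the anterior-posterior part, 2 were called higher (3.90% of all tested) and 1 lower (10.2% of all tested). In the cardia against posterior midgut, none was called higher (3.09% of all tested) and 1 was lower (1.22% of all tested). EN004030, whose values in these comparisons were known when it was added, is among the members lower in male versus female midgut and is the one lower in the cardia against posterior midgut, so nothing is read from those counts. The members' median ratios ran from -0.19 to 0.00 over the 6 comparisons, and those of all tested transcripts from -0.36 to 0.00.

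None of the 50 was called in the cardia against whole midgut by limma (1.69% of all tested higher and 1.17% lower). With the same fold change and an unadjusted p under 0.05, 2 members would have passed there (10.5% of all tested). In the posterior-posterior part, limma called none of the 50 and 0.00% of all tested transcripts. There, 1 member passed at an unadjusted p, as did 8.25% of the 3103 tested. The methods' t-test at their unadjusted threshold gave 0 and 1 member in these comparisons (1.36% and 2.61% of all tested), and none after adjustment.

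**Figure D1:**
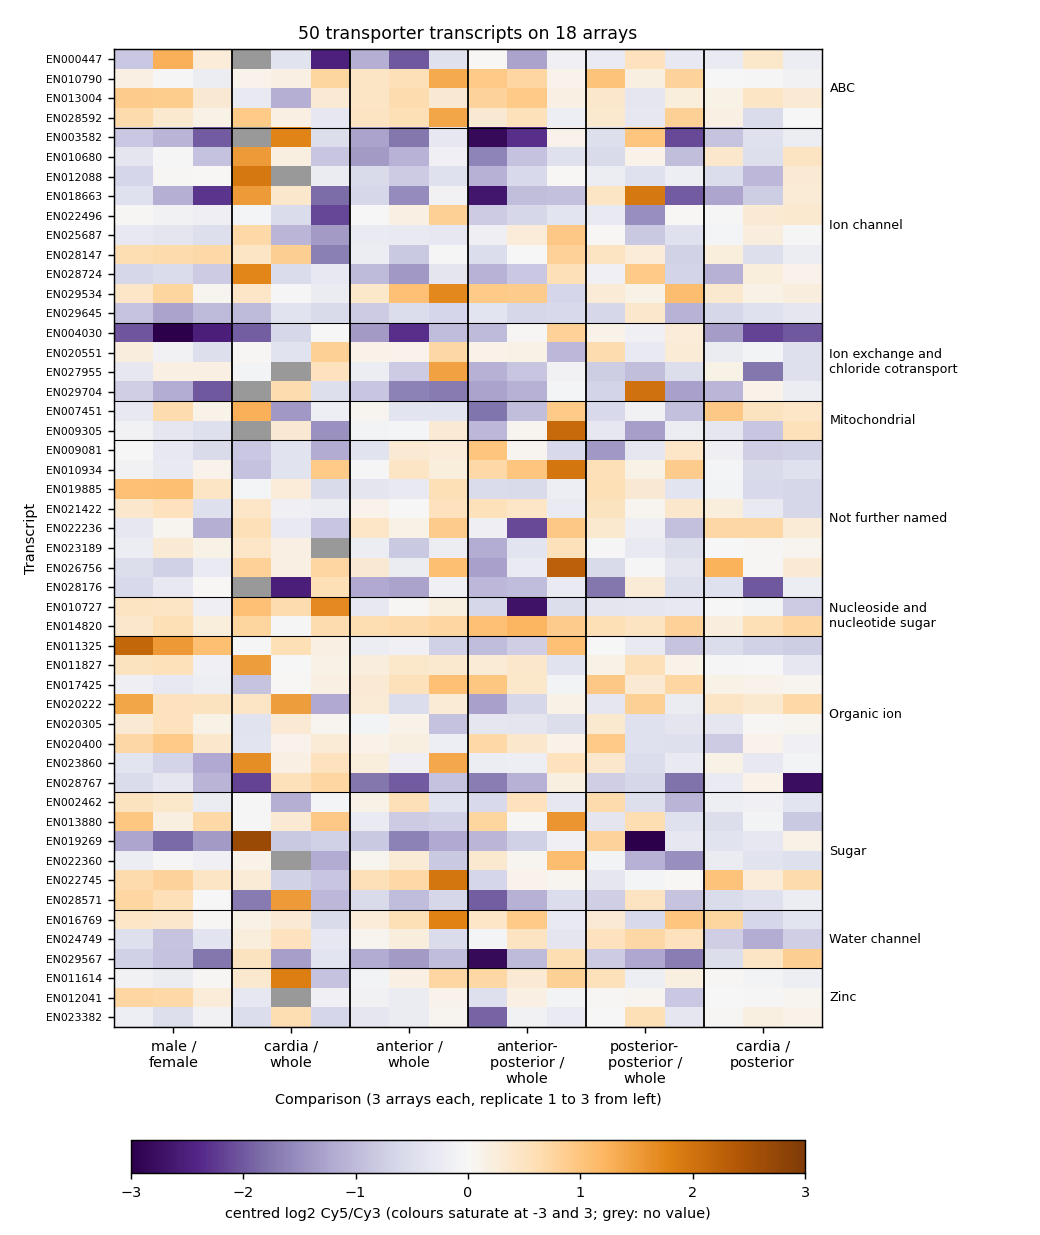
Centred log2 Cy5/Cy3 of the 50 transporter transcripts (rows, grouped by class) on the 18 arrays (columns, 3 for each of 6 comparisons), with grey for a missing value. The male versus female arrays resemble each other (r over the members from 0.744 to 0.835), the cardia versus whole arrays do not (r from -0.14 to -0.11).

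**Figure D2:**
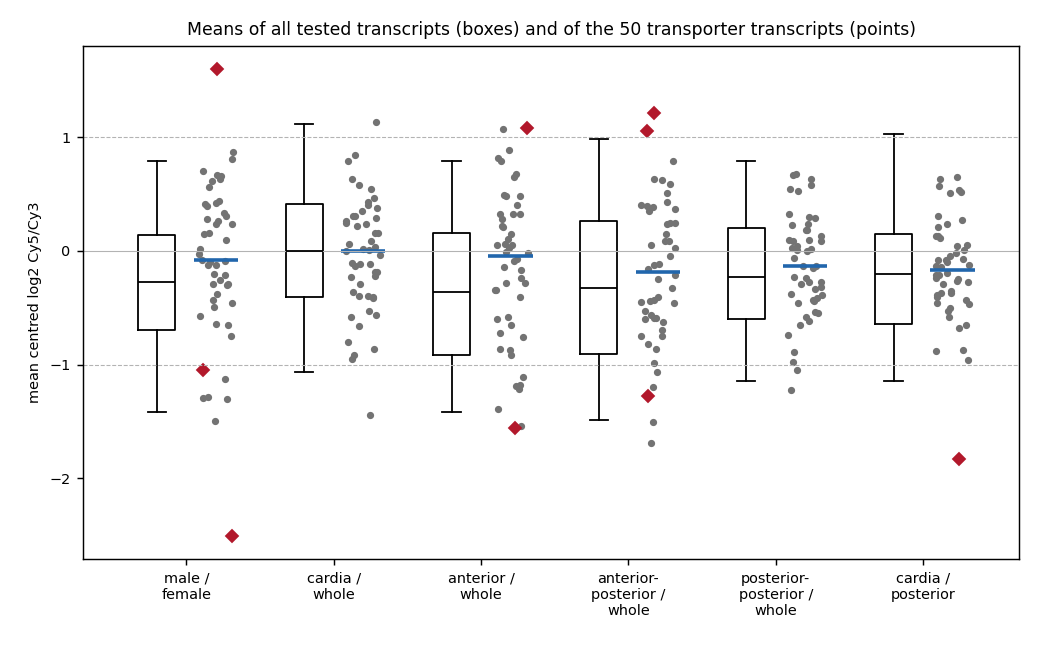
Mean centred log2 Cy5/Cy3 (vertical axis) in the 6 comparisons. Boxes show the quartiles of all tested transcripts with whiskers at their 5th and 95th percentiles, points are the 50 transporter transcripts with their median as a blue bar, and red diamonds are called members. Dashed lines mark a 2-fold change. The diamonds of EN004030 in male versus female and cardia versus posterior midgut are a description with no test.

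The sodium/hydrogen exchanger EN004030 had the lowest male versus female ratio of the 50. Such exchangers trade sodium for protons across a membrane and set the pH and sodium content of cells. Its ratios on the 3 arrays were -2.02, -2.98 and -2.52, all far below 0, with a mean of -2.51 ± 0.48. Under this centre, that is 5.68-fold towards the female midgut. EN004030 is off the male versus female list that sets the centre, and transcripts off this list tend to lie low in that comparison. In the cardia against posterior midgut, it stood at -1.35, -2.16 and -1.998, with a mean of -1.83 ± 0.43 or 3.56-fold more in the posterior midgut. It entered the set by name with its sex difference already known and was listed by the study for the cardia versus posterior assay, so these values are a description with no test. When all arrays were centred on the median of all transcripts instead, the means were -1.83 and -1.62.

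The same exchanger was lower in the anterior midgut than in whole midgut. The 3 arrays gave -1.37, -2.32 and -0.97, with a mean of -1.56 ± 0.69, a 2.94-fold difference (adjusted p = 0.0355, limma). Any 1 of the 3 arrays left out ended the call, with adjusted p from 0.107 to 0.199, and so did the centring on all transcripts, at -0.77 with adjusted p = 0.16. The cardia against whole midgut gave -1.95, -0.62 and -0.01, which is also below 0 but with a spread larger than the mean of -0.86. In the anterior-posterior part the arrays fell on both sides of 0 (-1.0, 0.04 and 0.82), and in the posterior-posterior part they stayed close to 0 (0.14, -0.12 and 0.26). From low to high, the mean ratios to whole midgut were thus -1.56 in the anterior midgut, -0.86 in the cardia, -0.05 in the anterior-posterior and 0.09 in the posterior-posterior part. No difference between any pair of them passed the test. The anterior minus posterior-posterior difference was -1.65 ± 0.53 (SE), with an adjusted p of 0.999 by limma. These are ratios of tissue RNA, so fewer cells that express the exchanger and less of its RNA per cell cannot be told apart. 

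**Figure D3:**
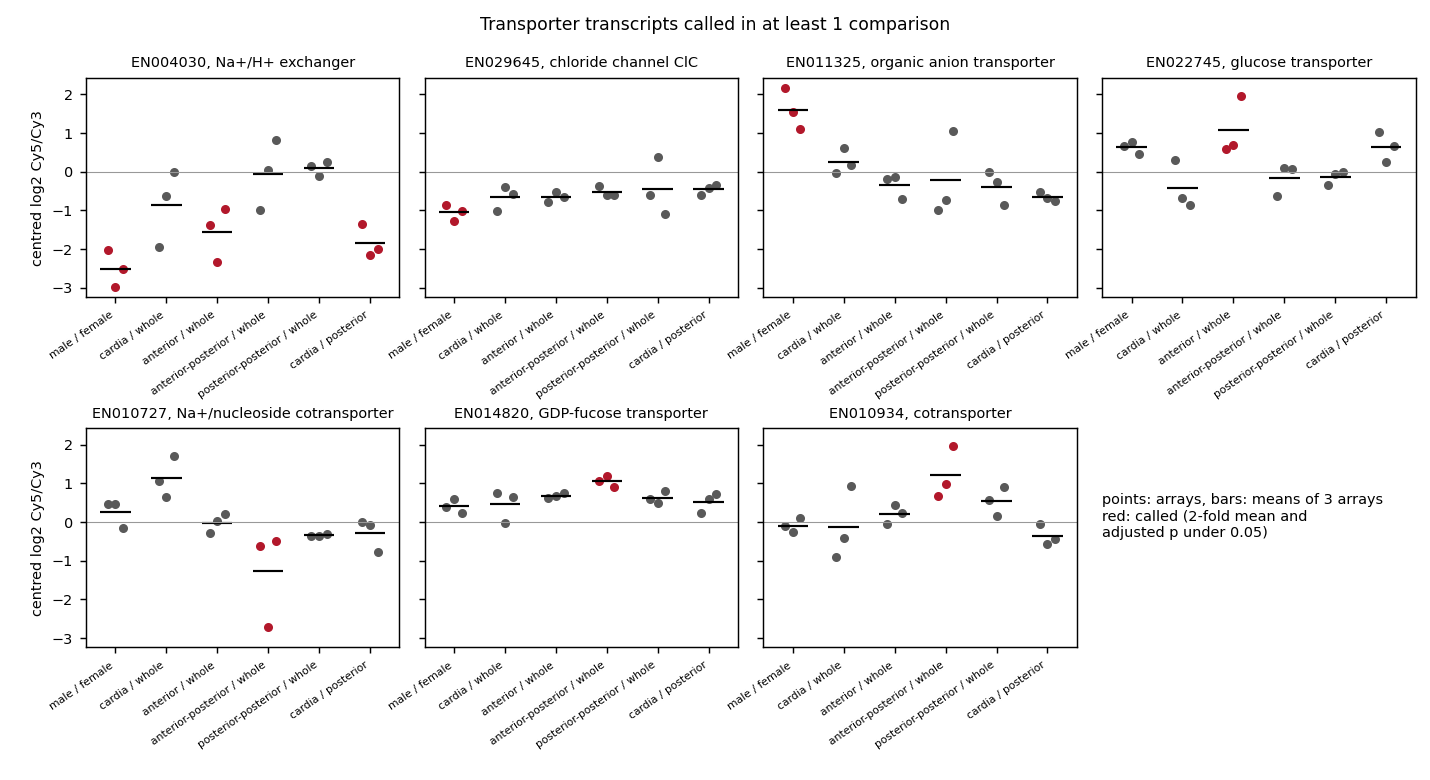
Centred log2 Cy5/Cy3 (vertical axis) of the 7 transporter transcripts called in at least 1 comparison, with 1 panel for each transcript, a point for each array and a bar for the mean of 3 arrays. Red points mark comparisons with a call. For EN004030 in male versus female and cardia versus posterior midgut, red is a description with no test, since these values were known when it was added. EN004030 lies between -2.98 and -2.02 in male versus female midgut and close to 0 in the posterior-posterior part.

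Over the 18 arrays, the ratios of EN004030 ran most like those of a thioredoxin peroxidase (EN019782, r = 0.864), a copia-like element (EN012752, r = 0.839), an angiotensin converting enzyme (EN011721, r = 0.829), a glyoxylate reductase (EN011670, r = 0.824) and a cytochrome P450 (EN015254, r = 0.817). These were the 5 highest of 2475 listed transcripts with a value on every array. Among the members, the cotransporter EN010934 came closest (r = 0.728) and the glucose transporter EN022745 was farthest in the opposite direction (r = -0.49). These correlations describe shared arrays and shared reference samples and carry no test.

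The other 3 transcripts of ion exchange and chloride cotransport were not called. The sodium/calcium exchanger EN029704, of a family that exchanges sodium for calcium across membranes, had -0.74, -1.16 and -2.01 in male versus female midgut and -0.85, -1.62 and -1.70 in the anterior midgut. All 6 values lay below 0, and the means were -1.30 ± 0.65 (adjusted p = 0.11) and -1.39 ± 0.47 (adjusted p = 0.081, both limma). It is 1 of 10 members that stand only on the compartment part of the study's list, where transcripts were listed for a 2-fold ratio on these same arrays, so its compartment values are no independent evidence. Nothing is read from its direction in male versus female midgut either, where transcripts off the male versus female list tend to lie low. The sodium/potassium/calcium exchanger EN027955 had means between -0.74 and 0.15 in the 5 comparisons other than cardia versus whole, and the bumetanide-sensitive sodium/potassium/chloride cotransporter EN020551, whose relatives load salt into epithelial cells of mammals, had means there between -0.26 and 0.32.

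Chloride channels of the ClC family carry chloride, or exchange it for protons in organelles. The ClC transcript EN029645 was called lower in male than in female midgut, with -0.87, -1.28 and -1.003 on the 3 arrays and a mean of -1.05 ± 0.21, a 2.07-fold difference (adjusted p = 0.0369, limma). All 3 values lay below 0 and close together. Each array left out in turn ended the call (adjusted p from 0.0765 to 0.240), and with arrays centred on all transcripts the mean was -0.37 (adjusted p = 0.429). With the replicate number as a block, adjusted p was 0.0546. The transcript was below 0 on 17 of the 18 arrays, whatever the samples, as were at least 17 values for 4.64% of all tested transcripts measured on every array. The other ClC transcript, EN018663, had -0.42, -1.13 and -2.30 in male versus female midgut and -2.64, -0.95 and -0.93 in the anterior-posterior part. Its means were -1.28 ± 0.95 and -1.51 ± 0.98, and neither was called (adjusted p = 0.217 and 0.0981). EN018663 stands only on the compartment part of the study's list, so its compartment values are no independent evidence. Transcripts off the male versus female list tend to lie low in that comparison, so nothing is read from its direction there. On 7 of the 18 arrays its ratio was one of small whole numbers.

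Of the 10 ion channel transcripts, EN003582, EN010680, EN018663 and EN028724 stand only on the compartment part of the study's list. All of these were below 0 on each male versus female and each anterior array. They were listed from the compartment arrays, and transcripts off the male versus female list tend to lie low in that comparison. Nothing is therefore read from the class counts that follow. In the class, 6 were below 0 on all 3 male versus female arrays and 2 above, where 46.3% and 18.6% of all tested transcripts were. In the anterior midgut, 8 were below 0 on all 3 arrays and 1 above (46.4% and 18.9% of all tested). The one above was EN029534, an inward rectifier potassium channel, a type that lets potassium into cells more readily than out. It had 0.41, 1.07 and 1.73 in the anterior midgut, each above 0 but spread widely, with a mean of 1.07 ± 0.66 (adjusted p = 0.0584). The other inward rectifier, EN028147, had -0.35 ± 0.42 there. In male versus female midgut, EN028147 was among the most even of the members, at 0.62, 0.67 and 0.69, with a mean of 0.66 ± 0.04 that stayed under 2-fold.

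The 2 potassium channels of subfamily K, which leak potassium at rest, leaned the other way. EN003582 had -2.84, -2.34 and 0.11 in the anterior-posterior part, so that the mean of -1.69 ± 1.57, the lowest of the 50 there, came from 2 of the 3 arrays. EN010680 had -0.98 ± 0.59 in the same part. Both were listed by the study from the compartment assays. The chloride intracellular channel EN022496 had -0.06, -0.55 and -2.15 in the cardia against whole midgut, where 1 array set most of the mean of -0.92. The amiloride-sensitive sodium channel EN028724, of the family that takes up sodium at apical membranes, and the voltage-dependent calcium channels EN012088 and EN025687 had means between -0.92 and 0.35 outside the cardia versus whole comparison. EN028724 had ratios of small whole numbers on 9 of 18 arrays, the most of any member.

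Water channels differed from each other more than as a group. The aquaporin EN024749 was below 0 in the cardia against posterior midgut on each array (-0.74, -1.15 and -0.74). Its mean of -0.88 ± 0.24, the lowest there after EN004030, EN028767 and EN028176, stayed short of 2-fold. In the posterior-posterior part the same aquaporin had 0.52, 0.71 and 0.52, a mean of 0.58 ± 0.11, and in male versus female midgut it had -0.57 ± 0.27. EN029567, another aquaporin, had -1.18, -1.36 and -0.98 in the anterior midgut and -0.77, -1.22 and -1.67 in the posterior-posterior part. Neither mean, -1.18 ± 0.19 nor -1.22 ± 0.45, was called (adjusted p = 0.104 and 0.179), and both come from the assays by which the study listed this transcript. EN016769 was above 0 in the anterior midgut at 0.27, 0.61 and 1.78, with the third array well above the others and a mean of 0.89 ± 0.79 (adjusted p = 0.109).

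Sugar transporters of the facilitated glucose type let hexoses pass down their gradient. Among the 5 such transcripts, EN022745 was called higher in the anterior midgut than in whole midgut. Its arrays gave 0.58, 0.70 and 1.97, all above 0 with 1 far higher, and a mean of 1.08 ± 0.77 or 2.12-fold (adjusted p = 0.0443, limma). Without the third array the mean was 0.64 (adjusted p = 0.232), and the call was also lost without either of the others. When tested among all transcripts of the array, the adjusted p was 0.0525, and with the replicate number as a block it was 0.0699. The mean was 0.73 without centring (adjusted p = 0.149) and 1.87 with arrays centred on all transcripts (adjusted p = 0.000985, both limma). EN022745 was above 0 on all 3 arrays (1.02, 0.26 and 0.66) in the cardia against posterior midgut as well, with the highest mean of the members there, 0.65 ± 0.38 (adjusted p = 0.208). Against whole midgut, however, the cardia gave 0.29, -0.69 and -0.86. In male versus female midgut it had 0.67, 0.78 and 0.46.

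The other glucose transporters pointed in different directions. In the anterior-posterior part, EN013880 had 0.75, 0.03 and 1.57, a mean of 0.79 ± 0.77 (adjusted p = 0.0799), while EN028571 had -1.95, -1.12 and -0.52, a mean of -1.20 ± 0.72 (adjusted p = 0.0677). In male versus female midgut the means of the 5 lay closer together, from -0.13 to 0.63, and 4 of them were above 0. In the posterior-posterior part none of the 5 had a mean above 0. EN022360 was the lowest there, at -0.08, -1.11 and -1.49, with a mean of -0.89 ± 0.72. EN019269, named as a sugar transporter and cadherin, had -1.26, -1.86 and -1.38 in male versus female midgut. The mean of -1.50 ± 0.32 was the lowest after EN004030, with every array below 0, but was not called (adjusted p = 0.141).

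The nucleoside and nucleotide sugar carriers held 2 of the 3 calls of the anterior-posterior part. EN014820 is named as a GDP-fucose transporter, which in flies and mammals brings the activated sugar into the Golgi for fucosylation of proteins. It was called higher there with 1.06, 1.21 and 0.90, the closest agreement of any called member, and a mean of 1.05 ± 0.15, or 2.08-fold (adjusted p = 0.0096, limma). The call was lost without the first or the second array (adjusted p = 0.0701 and 0.0804) and kept without the third (adjusted p = 0.013). Its size depended on the centre of the arrays. Centring on all transcripts gave a mean of 1.93 (adjusted p = 0.000219), and no centring gave 0.07 (adjusted p = 0.86, both limma). The second array's ratio was one of small whole numbers, and without such ratios the mean was 0.99, just under 2-fold. EN014820 was above 0 on 17 of the 18 arrays, where 2.63% of all tested transcripts were on at least 17. Its mean was above 0 in each of the 4 compartments against whole midgut, of which they are parts (0.46, 0.68, 1.05 and 0.63 from front to back), with 0.77, -0.03 and 0.65 on the cardia arrays.

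EN010727 is named as a sodium/nucleoside cotransporter, a type that in mammals takes up nucleosides together with sodium. It was called lower in the anterior-posterior part, with -0.63, -2.70 and -0.50 and a mean of -1.28 ± 1.24 (adjusted p = 0.0252, limma), 2.42-fold. The second array, again a ratio of small whole numbers, set the size of this value, and without it the mean was -0.56 (adjusted p = 0.269). The call was also lost without the first array (adjusted p = 0.0638) and kept without the third. With arrays centred on all transcripts the mean was -0.40 (adjusted p = 0.468). In the cardia against whole midgut, the transcript had 1.07, 0.65 and 1.70, all above 0, and the highest mean of the members there, 1.14 ± 0.53 (adjusted p = 0.0775). The posterior-posterior arrays were nearly equal, at -0.36, -0.35 and -0.30. On the direct cardia versus posterior arrays it had -0.002, -0.09 and -0.78, none above 0, with a mean of -0.29 ± 0.43 (adjusted p = 0.682).

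The cotransporter EN010934, whose substrate the list does not give, was the third member called in the anterior-posterior part. The 3 arrays gave 0.69, 0.99 and 1.96, all above 0, with a mean of 1.21 ± 0.67 or 2.32-fold (adjusted p = 0.0212). In the posterior-posterior part it had 0.57, 0.16 and 0.90, and in male versus female midgut values close to 0 (-0.10, -0.26 and 0.11). Without any 1 of the 3 anterior-posterior arrays it was no longer called, with adjusted p from 0.0638 to 0.0849. Without centring its mean there was 0.23 (adjusted p = 0.592), and with arrays centred on all transcripts it was 2.09 (adjusted p = 0.000451, both limma). All 3 calls of this part depended on the spread shared with the other arrays. In a fit of its own 3 arrays, limma called none of the 3104 transcripts, and the adjusted p of the 3 members lay between 0.13 and 0.154. The median SD of all tested transcripts was 0.62 in this comparison, 0.80 in cardia versus whole and 0.29 in cardia versus posterior, while the fit takes 1 spread for all. On simulated data with such unequal spreads, the fit made more false calls than the limit set for it in cardia versus whole midgut, in the anterior-posterior part and in the contrasts with the cardia, so adjusted p-values there can be too small.

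Transporters of organic ions held the one member called higher in the male midgut. EN011325 belongs to the organic anion transporting polypeptides, which in mammals and flies move hormones, conjugated metabolites and toxins. Its male versus female ratios were 2.17, 1.54 and 1.10, each above 2-fold, with a mean of 1.60 ± 0.54 or 3.04-fold (adjusted p = 0.0211, limma). With any 1 array left out it was no longer called (adjusted p from 0.0941 to 0.196), and the centring on all transcripts raised the mean to 2.28. Both salivary gland markers were also above 0 on all 3 male versus female arrays, with means of 1.23 and 1.60 (adjusted p = 0.176 and 0.0737). Their part in the result was not tested. In the cardia against posterior midgut, EN011325 was at -0.53, -0.68 and -0.76, close together and below 0, with a mean of -0.66 ± 0.12. Like EN004030, EN024749 and EN028176, it stands on the cardia versus posterior part of the study's list, so no test is given for its ratio there. The second transcript of this name, EN011827, had 0.31 ± 0.39 in male versus female midgut, and the difference between the transcripts was not tested.

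Other carriers of organic ions stayed below the thresholds. A vesicular amine transporter, EN020222, a type that fills vesicles with amine transmitters, had 1.40, 0.52 and 0.50 in male versus female midgut (mean 0.81 ± 0.51, adjusted p = 0.217). The carnitine and organic cation transporter EN028767 had -1.74, -1.99 and -0.91 in the anterior midgut, with a mean of -1.54 ± 0.57, the lowest after EN004030 (adjusted p = 0.0823). In the posterior-posterior part it had -1.05 ± 0.65, and in the cardia against posterior midgut 1 array at -2.78 stood apart from the others at -0.25 and 0.14. It was 1 of the transcripts that the study listed from the compartment assays. The other members of this name, EN020305 and EN020400, had means from -0.40 to 0.67 outside the cardia versus whole comparison. The monocarboxylate transporter EN017425, which carries lactate and pyruvate in mammals, was above 0 on every posterior-posterior array (0.95, 0.31 and 0.73, mean 0.66 ± 0.32, adjusted p = 0.187). The sodium/dicarboxylate cotransporter EN023860 had 1.66, 0.19 and 0.52 in the cardia against whole midgut.

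ABC transporters use ATP to move lipids and other compounds across membranes. None of the 4 was called. The 3 of subfamily A, lipid carriers in mammals, had means of 0.24, 0.40 and 0.70 in male versus female midgut, and one of them, EN000447, had the lowest mean of the 50 in the cardia against whole midgut, -1.44 from 2 arrays at -0.40 and -2.49. EN010790 of subfamily F, whose members lack the membrane domains of other ABC proteins, was above 0 on all posterior-posterior arrays (1.03, 0.20 and 0.79) with the highest mean of the members there, 0.67 ± 0.43 (adjusted p = 0.179). Zinc transporters were close to 0 in most comparisons, with means from -0.75 to 0.62 for the 3 transcripts outside the cardia versus whole comparison. Of the 2 mitochondrial carriers, the ornithine transporter EN007451, which serves the urea cycle in mammals, had 0.94, 0.51 and 0.43 in the cardia against posterior midgut, with a mean of 0.63 ± 0.28 (adjusted p = 0.431).

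Of the 8 transcripts named only as transporter or cotransporter or by a melanocyte protein, EN010934 was the only one called. EN019885 was above 0 on the 3 male versus female arrays (1.06, 1.09 and 0.47), with a mean of 0.87 ± 0.35 that came second to EN011325 (adjusted p = 0.0688). EN028176 had -0.44, -2.01 and -0.20 in the cardia against posterior midgut, so that 1 array set the mean of -0.88. EN022236 was above 0 on the same arrays (0.71, 0.71 and 0.29, mean 0.57 ± 0.24). In the cardia against whole midgut, EN009081 was below 0 at -0.83, -0.40 and -1.17 and EN026756 above 0 at 0.81, 0.19 and 0.74, without a call for either.

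The 10 transcripts listed only from the compartment assays are absent from the male versus female list, which is also the centre of the arrays. Their male versus female means were all below 0, from -1.30 to -0.30. In male versus female midgut the median of all transcripts was 0.68 below this centre, and the median of the 10 was -0.70. Nothing is read from their direction. Ratios of small whole numbers occurred on 2 to 9 of the 18 arrays for these 10 (median 4.5) and on 0 to 6 for the other 40 (median 2).

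Differences between compartments were taken from the ratios to whole midgut in the same fit. Only 1 member was called, the sodium/nucleoside cotransporter EN010727, whose cardia/whole ratio exceeded the anterior-posterior/whole ratio by 2.41 ± 0.49 (SE, adjusted p = 0.0169, limma). Among all tested transcripts, 3.83% were called higher and 0.877% lower in this contrast. No member was called by limma for cardia minus anterior (0.877% of all tested higher and 0.0650% lower) or cardia minus posterior-posterior (0.455% higher and 0.0325% lower), where 18.8% and 13.4% of all tested passed the 2-fold change with an unadjusted p under 0.05. For EN010727, the cardia arrays ran from 0.65 to 1.70 and the anterior-posterior arrays from -2.70 to -0.50. These are the arrays that gave the call, so their separation adds no support to it. The difference relied on arrays that are doubtful on both sides. On the arrays of the 2 comparisons alone, the adjusted p was 0.325, and without the second anterior-posterior array the difference was 1.70 (adjusted p = 0.065). The call was kept with any single cardia array left out. It was lost with arrays centred on all transcripts (1.63, adjusted p = 0.0533) and without centring (1.96, adjusted p = 0.0646), and the direct cardia versus posterior ratios of the transcript were not above 0. The glucose transporter EN022745 had a cardia minus anterior difference of -1.50 ± 0.42 (SE, adjusted p = 0.0752), and EN010934 a cardia minus anterior-posterior difference of -1.34 ± 0.45 (SE, adjusted p = 0.0868). The 3 contrasts among the anterior, anterior-posterior and posterior-posterior parts gave no call for any tested transcript by limma, and 4.41%, 3.00% and 3.67% of all passed the 2-fold change with an unadjusted p under 0.05.

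Other genes of midgut transport were read from lists made by words in the same names, and their counts stand beside the shares of all tested transcripts given above. Names on the later rows of the cardia versus posterior part, which stand 1 row off, were not used, so these lists may be incomplete. Their transcripts may have entered the tested set by their ratio on the cardia versus posterior arrays, so calls there are no independent evidence. Of 17 primary pumps, which include V-ATPase subunits and P-type ATPases, 1 was called lower in male than in female midgut (3.90% of all tested), V-ATPase subunit G, EN018502, at -1.39 ± 0.68 (adjusted p = 0.0467). V-ATPase subunit D, EN010517, was called lower in the cardia than in posterior midgut (1.22% of all tested), at -1.71 ± 0.14 (adjusted p = 0.0124), and lower in the cardia than in whole midgut, at -1.67 ± 1.03. Also in cardia versus whole midgut, a V-ATPase subunit of the membrane sector, EN008399, was called higher at 2.41 ± 2.37 and subunit H, EN011012, lower at -1.19 ± 0.53. In a fit of the cardia versus whole arrays alone, none of the 3077 tested transcripts was called. These cardia versus whole calls therefore depended on the spread shared with the other comparisons. A phospholipid-transporting ATPase, EN006830, was called lower in the anterior-posterior part (10.2% of all tested), at -1.84 ± 1.12. Subunit H was also the 1 pump called in a compartment contrast, at -1.71 for cardia minus anterior-posterior.

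Among 5 carbonic anhydrases, which make protons and bicarbonate from carbon dioxide, EN011013 was called higher in the cardia than in posterior midgut (3.09% of all tested) at 1.30 ± 0.06 (adjusted p = 0.00909). EN014919 was called higher in the cardia than in whole midgut (1.69% of all tested) at 2.87 ± 2.88, with an SD as large as the mean. Fitted alone, the cardia versus whole arrays gave no call among the 3077 tested transcripts. Of 5 sugar-digesting enzymes, the maltase EN029512 was called higher in the anterior-posterior part (3.90% of all tested), at 1.31 ± 0.10 (adjusted p = 0.0096). Among 17 other carriers, the multidrug resistance associated EN016419 was called lower in the anterior midgut (3.87% of all tested) at -1.60 ± 0.35 and in the anterior-posterior part at -1.77 ± 1.03. A solute carrier of family 35, EN021731, was called lower in the anterior-posterior part at -1.02 ± 0.71. The ADP/ATP carrier EN014881, which exchanges these nucleotides across the inner mitochondrial membrane, went the other way, higher in the cardia than in posterior midgut at 1.52 ± 0.62 (adjusted p = 0.0375). As for the pumps, the cardia versus posterior calls of EN011013 and EN014881 are no independent evidence.

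A further 21 transporters were found that stand only on the cardia versus posterior part of the study's list, like EN004030. Names on its later rows, which stand 1 row off, were not used, so 21 is not a full count. The glucose transporter EN018204 is also counted among the other carriers. That part names transcripts by their ratio on those 3 arrays. In male versus female midgut, transcripts off the male versus female list tend to lie low against its median. Neither comparison is therefore independent evidence for them. In male versus female midgut, 20 of the 21 were below 0 on all 3 arrays (46.3% of all tested) and 5 were called lower (3.90% of all tested). These were the monocarboxylate transporters EN018326 (-1.995 ± 1.00) and EN001582 (-1.28 ± 0.59), the aquaporin EN017068 (-1.60 ± 0.99), the voltage-gated potassium channel EN003834 (-1.51 ± 0.49) and the proton/peptide cotransporter EN016126 (-1.08 ± 0.36), with adjusted p from 0.0198 to 0.0494. Without the second or the third male versus female array, limma called none of all tested transcripts, while 362 and 288 passed the 2-fold change with an unadjusted p under 0.05. In the anterior-posterior part 5 were called lower (10.2% of all tested), among them EN017068 at -2.19 ± 0.56. EN016126 was called lower in the cardia than in posterior midgut, and the sodium/potassium/calcium exchanger EN012485 was called for cardia minus anterior-posterior, at 2.61. Their median male versus female ratio was -1.03, against -0.08 for the 50 members and -0.27 for all tested transcripts. With all transcripts as the centre, every male versus female mean is 0.68 higher.

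The number of called transporters depended on the centre of the arrays, as the plot of calls by setting shows. With arrays centred on the median of all transcripts, the members called higher and lower were 10 and 1 in male versus female midgut, 15 and none in the anterior midgut, 16 and none in the anterior-posterior part, and 1 and none in the posterior-posterior part. The same change took all tested transcripts from 31 higher and 121 lower to 363 and 20 in male versus female midgut. In the anterior midgut it took them from 36 and 120 to 604 and 13, and in the anterior-posterior part from 121 and 318 to 865 and 16. In the posterior-posterior part it took them from 0 and 0 to 141 and 5. The members thus moved with the whole list. Relative to the other centre, all means of a comparison shift by 0.10 in cardia versus whole to 0.88 in the anterior-posterior part. EN004030 kept its direction under both centrings and without centring in male versus female, anterior versus whole and cardia versus posterior midgut, as did EN011325 in male versus female midgut.

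**Figure D4:**
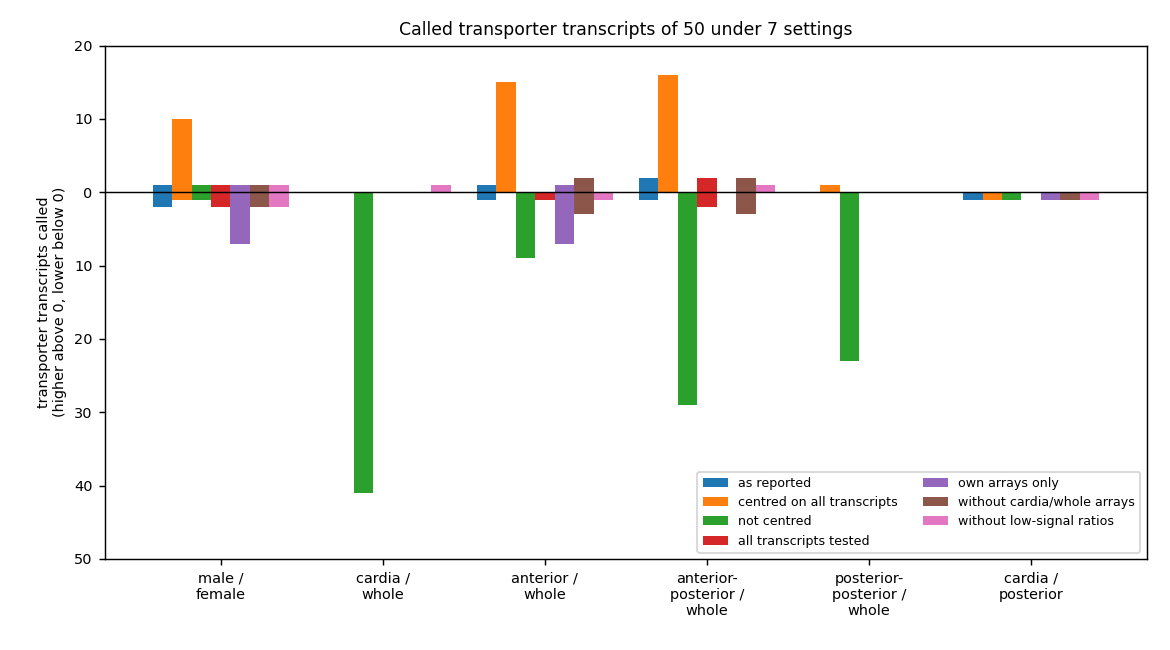
Number of the 50 transporter transcripts called higher (bars above 0) and lower (bars below 0) in each comparison under 7 ways of processing. Centring on all transcripts turned calls towards higher, 15 in the anterior midgut, where 19.9% of all tested transcripts were called in either direction. Leaving out the centring turned them towards lower, 41 in cardia versus whole midgut, where 74.5% of all tested were called. The fit without cardia versus whole arrays has no bar for that comparison. Where EN004030 is counted in male versus female or cardia versus posterior midgut, this is a description with no test.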

How the data were processed

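The authors hybridized Cy5-labeled and Cy3-labeled cRNA to oligonucleotide arrays and read spots with GenePix Pro. Their methods give a signal threshold and LOWESS normalization, but the deposited log2 Cy5/Cy3 ratios, 1 column for each array, carry neither, and no intensities were used here. The 120 values of 16.6096 (a ratio of 100000) were treated as missing. Features (15495) were averaged by transcript, and arrays were centred as described. The number of arrays limits the precision. Transcripts with values on at least 2 arrays were fitted with limma 3.58.1 in R 4.3.3 (18 arrays, 1 spread per transcript, 5.53 prior degrees of freedom), and the script was tested on simulated data. With each comparison's own spread, which is nearer to these arrays, it failed the limit set on false calls, and it met that limit only after the simulation was changed to 1 spread per transcript. Tables used Python 3.11.15, pandas 2.3.3 and NumPy 2.4.6. The tested set is not independent of these arrays, since the study chose it in part from them.

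Named members were all those called, the 3 highest and 3 lowest means of each comparison with all arrays on 1 side of 0, and EN004030, in all 29 transcripts; others named above, such as EN003582, EN010680, EN000447 and EN028147, were chosen after their values were seen. Members, lists, the centre and the tested set were chosen with earlier results of these data known. In the cardia versus posterior part of the list, names from 1 point on stand 1 row off (62 of 65 match the next row), and no member named from that part lies beyond it. Replicate numbers were not taken to pair the arrays. Alternatives were another centre or none, other tested sets, fits of fewer arrays, a replicate block, stricter missing-value and low-signal filters, the methods' t-test, and each array left out. A ratio counted as one of small whole numbers where it or its inverse came within 0.00051 of a quotient of integers up to 10. No sequences or genome coordinates are given.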

Additional observations from a re-analysis of the deposited data

Results flagged for a closer look

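The sodium/nucleoside cotransporter EN010727 differed between the cardia and the anterior-posterior part, by a test of the difference of their ratios to whole midgut (2.41 on the log2 scale, adjusted p = 0.0169, limma). All 3 cardia arrays were above 0 and all 3 anterior-posterior arrays below, but these arrays gave the call, so this adds no support to it. Its ratio was one of small whole numbers on the first cardia and the second anterior-posterior array, and without all such ratios the difference was 1.76 (adjusted p = 0.0631). With arrays centred on all transcripts it was 1.63 (adjusted p = 0.0533), without centring 1.96 (adjusted p = 0.0646), and on the arrays of both comparisons alone adjusted p was 0.325. The direct cardia versus posterior arrays of this transcript gave -0.002, -0.09 and -0.78. Groups of 3 arrays are too small for a search for single outlying values.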

How the results depend on the processing

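Of 524 alternatives to 38 values of named members, 427 kept direction and side of the threshold, 59 lost the call, 31 gained one and 7 changed sign. All 7 came without centring, at -0.30, -0.65 and -0.86 for EN010727, EN023860 and EN026756 in cardia versus whole midgut, -0.19 for EN013880 in the anterior-posterior part, and -0.16, -0.20 and -0.16 for EN010790, EN014820 and EN017425 in the posterior-posterior part, and leaving out the centre moves the ratios of each comparison against whole midgut down. Counts of called members moved as follows, and the cause was not tested unless it lies in the alternative itself. Parentheses give the share of all tested transcripts called in either direction under the same alternative. Centring on all transcripts gave 11 in male versus female (12.3%), 15 in anterior (19.9%), 16 in anterior-posterior (28.4%) and 1 in posterior-posterior (4.71%). It also gave 1 for cardia minus anterior (0.292%) and 4 for cardia minus anterior-posterior (10.2%). No centring gave 41 in cardia versus whole (74.5%), 9 in anterior (30.1%), 29 in anterior-posterior (61.6%) and 23 in posterior-posterior (50.1%). It also gave 9 for cardia minus anterior (13.5%) and 0 for cardia minus anterior-posterior (0.650%). A fit of a comparison's own arrays gave 8 in male versus female (15.9%), 8 in anterior (18.8%), 0 in anterior-posterior (0.00%) and 0 for cardia minus anterior-posterior (0.00%). Testing all transcripts gave 1 in anterior (6.08%) and 0 in cardia versus posterior (0.275%). Without the cardia versus whole arrays, 5 were called in anterior, where 73 of the 3104 tested transcripts were called higher and 363 lower. That fit also gave 5 in anterior-posterior (20.5%). Without ratios of small whole numbers, 1 was called in cardia versus whole (5.04%), 1 in anterior (2.90%), 1 in anterior-posterior (6.19%) and 0 for cardia minus anterior-posterior (1.75%). The methods' t-test after adjustment gave 0 in male versus female, anterior and anterior-posterior (0.00% each) and 0 in cardia versus posterior (0.0966%). Without adjustment it gave 4 in anterior (10.6%), 1 in anterior-posterior (6.48%) and 1 in posterior-posterior (2.61%). Leaving out 1 array gave 0 to 1 in male versus female (0.00% to 1.49%), 0 to 2 in cardia versus whole (1.88% to 8.77%) and 0 in anterior (0.00% to 0.323%). It gave 0 to 6 in anterior-posterior (0.00% to 25.7%), 0 in posterior-posterior (0.00% to 0.0650%) and 0 to 1 in cardia versus posterior (0.904% to 2.02%). For the contrasts it gave 0 to 1 for cardia minus anterior (0.0651% to 9.02%) and 0 to 5 for cardia minus anterior-posterior (0.264% to 16.5%).

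Deviations of same-numbered arrays correlated at r from -0.48 to 0.29 over 45 pairs, with 6 over 0.1 and 12 pairs best with their own number. The 3 pairs of male versus female with posterior-posterior arrays had 0.294, 0.126 and 0.235, each best with its own number, and no other 2 comparisons had all 3 over 0.1. With the replicate number as a block, 2 members were called in male versus female midgut, where EN029645 had adjusted p = 0.0546, 1 in anterior, where EN022745 had 0.0699, 3 in anterior-posterior and 1 in cardia versus posterior. In the same order, 1.61%, 1.74%, 11.9% and 3.32% of all tested transcripts were called. Signal over background cannot be given from ratios, and the ratios of small whole numbers stand in for low signal.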
